A study of Mus musculus with 12 samples.

Results

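The postsynaptic density of excitatory synapses was followed through 34 genes in cultured mouse cortical neurons. The genes were taken by name, as scaffold, adhesion, receptor-auxiliary and signalling genes of this structure. All 34 were among the 23955 genes of the deposited tables, and all 34 passed the filter on low counts, which left 14785 genes for testing.

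Primary neurons from E16.5 C57BL/6J embryos received a lentivirus that expresses a short hairpin RNA (shRNA) and were harvested 7 days after dissection. The groups were shAdar1 (hairpin against Adar, the gene of the RNA-editing enzyme ADAR1), shAdar2 (against Adarb1, the gene of the editing enzyme ADAR2), shZfr (against Zfr, which encodes a zinc-finger RNA-binding protein), and the control hairpins shControl2 and shControl1. All neurons, controls included, carried the pGreenPuro hairpin vector, so no uninfected neurons were compared. Each group had 2 biological replicates. The submitters set shAdar1 and shAdar2 against shControl1, and shZfr against shControl2. The labels name 1 hairpin per target, so loss of the target and other effects of that hairpin cannot be told apart. Neither the labels nor the design text say what makes the replicates biologically separate, and p-values here measure the spread between these samples.

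The postsynaptic density is a protein mesh beneath the membrane of excitatory synapses. Membrane-associated guanylate kinases (the Dlg genes) bind receptors and adhesion molecules from below, Dlgap proteins link them to Shank proteins, and Shank proteins meet Homer proteins, which bind metabotropic glutamate receptors. Neuroligins and the Lrrtm proteins reach across the cleft to presynaptic partners. Transmembrane AMPA receptor regulatory proteins (Cacng genes) and cornichons (Cnih2) accompany AMPA-type glutamate receptors, and calcium/calmodulin-dependent kinase II (Camk2 genes) with the calmodulin-binding protein neurogranin (Nrgn) carries the calcium signal. Many of these genes increase as cortical neurons mature.

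Libraries held 15818942 to 29671849 expected counts, and the lowest count of any of the 34 genes in any library was 56. The targeted genes were lower in their own group: Adar kept 30.9% of its shControl1 level in shAdar1, Adarb1 kept 41.7% of its shControl1 level in shAdar2, and Zfr kept 37.6% of its shControl2 level in shZfr. Against the other control, Adar in shAdar1 stood at 41.5%, Adarb1 in shAdar2 at 52.5% and Zfr in shZfr at 61.9%. Adarb1 in shZfr stood at 49.5% of shControl2 and 39.3% of shControl1, close to its values in shAdar2. Zfr in shAdar2 stood at 41% of shControl2 and 67.5% of shControl1, close to its values in shZfr. The 2 shZfr samples differed hardly more than counting noise, with a mean chi-square per gene of 1.69 over all genes and 0.753 over the 34 genes, where 1 is counting noise. Pairs of replicates in shAdar1, shControl2 and shControl1 gave 14.4 to 25.9. Every shZfr count is therefore given also with the pair summed to 1 sample, which is then assumed to vary like the other groups, and shZfr values are given per sample with no SD. The 3 technical libraries of shAdar2 replicate 1, made from RNA of the same neurons and summed to 1 sample, differed by 18.6 to 54.1. Over the 34 genes they differed by 60.5 to 229, above the 31.2 to 51 of replicate pairs in shAdar1, shControl2 and shControl1. From shAdar2 replicate 2 they differed by 42.3 to 59.3 (55.2 to 261 over the 34 genes). Libraries of the same RNA thus differed by more than counting noise, and the step behind this was not tested.

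Marker genes of the cells in such a culture moved with the groups. The summed level of 8 neuron markers ran from 3670 to 4290 CPM (counts scaled by TMM to a common library size) in shAdar1, 2090 to 2120 in shAdar2, 6390 to 6540 in shZfr, 4600 to 5230 in shControl2 and 3290 to 3460 in shControl1. Map2, the most abundant of the 8, made up much of these sums, with 688 and 886 CPM in shAdar2, 4420 and 4500 in shZfr, 3140 and 3770 in shControl2, and 2060 and 1790 in shControl1. The 8 did not move as 1: Tubb3 was highest in shAdar1 (1080 and 879 CPM), and Eno2 in shAdar2 (130 and 75.5 CPM, against 57.5 and 54.2 in shControl2 and 65.1 and 69.9 in shControl1). Excitatory neuron markers (8 genes) summed to 1120 to 1240 CPM in shAdar1, 716 to 792 in shAdar2, 1490 to 1510 in shZfr, 1440 to 1620 in shControl2 and 892 to 1020 in shControl1. For 8 GABAergic markers the sums were 407 to 633 CPM in shAdar1, 581 to 939 in shAdar2, 310 to 314 in shZfr, 576 to 609 in shControl2 and 324 to 402 in shControl1. The sum of 9 astrocyte markers ran from 1670 to 2800 CPM in shAdar1, 685 to 1210 in shAdar2, 1830 to 1980 in shZfr, 2920 to 3380 in shControl2 and 928 to 1360 in shControl1. For 8 markers of proliferating progenitors the sums were 331 to 741 CPM in shAdar1, 179 to 531 in shAdar2, 1200 to 1280 in shZfr, 650 to 699 in shControl2 and 281 to 339 in shControl1. For 7 oligodendrocyte-lineage markers they were 142 to 407 CPM in shAdar1, 89.1 to 319 in shAdar2, 260 to 300 in shZfr, 439 to 440 in shControl2 and 76.4 to 120 in shControl1. Every marker of these 6 lists was above 0 in every group. The sum of 6 microglia markers stayed between 0.182 and 3.47 CPM, and Tmem119, a defining microglia marker, was at 0 in all samples but 1 of shControl1. The sum of 6 endothelial and mural markers stayed between 6.08 and 21.1 CPM. The part of these marker differences in the results was not tested, and fewer cells of a type cannot be told apart from less RNA per cell in such bulk samples.

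Promoter windows of 4 genes are shown as examples, from families with members that moved in opposite directions (Homer, Cacng) and for the largest change (Nrgn). Members of other families also moved in opposite directions, such as Lrrtm1 (higher) and Lrrtm2 (lower) in shAdar2 against shControl1. Each window runs from 250 bases before to 50 bases after a RefSeq gene start on GRCm38.p6, written 5′ to 3′ along the gene. Capitals mark GC boxes, CCAAT boxes or half-sites of the cyclic AMP response element, searched on both strands. The letters searched for GC boxes were GGGCGG. Half-sites were searched as TGACG, which is also the first part of the full element.
Homer1, chr13:93303507-93303806, plus strand: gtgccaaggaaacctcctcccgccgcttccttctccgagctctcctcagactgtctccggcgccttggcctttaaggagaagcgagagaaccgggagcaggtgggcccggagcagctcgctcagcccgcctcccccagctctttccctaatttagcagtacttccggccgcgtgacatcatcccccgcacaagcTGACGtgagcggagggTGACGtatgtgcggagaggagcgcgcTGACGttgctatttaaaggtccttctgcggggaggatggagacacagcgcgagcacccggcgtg
Homer3, chr8:70282749-70283048, plus strand: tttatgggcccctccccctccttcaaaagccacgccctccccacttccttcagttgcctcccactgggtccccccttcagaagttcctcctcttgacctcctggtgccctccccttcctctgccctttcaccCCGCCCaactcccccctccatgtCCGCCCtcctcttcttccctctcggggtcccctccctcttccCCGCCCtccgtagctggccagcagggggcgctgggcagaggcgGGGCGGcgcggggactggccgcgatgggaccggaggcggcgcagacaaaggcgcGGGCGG
Cacng2, chr15:78119231-78119530, minus strand: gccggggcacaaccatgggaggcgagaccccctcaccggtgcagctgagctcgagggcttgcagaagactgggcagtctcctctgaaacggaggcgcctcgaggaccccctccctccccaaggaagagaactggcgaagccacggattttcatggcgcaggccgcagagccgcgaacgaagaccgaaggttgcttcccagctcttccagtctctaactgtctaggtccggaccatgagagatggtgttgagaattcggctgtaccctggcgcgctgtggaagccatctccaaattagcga
Nrgn, chr9:37552696-37552995, minus strand: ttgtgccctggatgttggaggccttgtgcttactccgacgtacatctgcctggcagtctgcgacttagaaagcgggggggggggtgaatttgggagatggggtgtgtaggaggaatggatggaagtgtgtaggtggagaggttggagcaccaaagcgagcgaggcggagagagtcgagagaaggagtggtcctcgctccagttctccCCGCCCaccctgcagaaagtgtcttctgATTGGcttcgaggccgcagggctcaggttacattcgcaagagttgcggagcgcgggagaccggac

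Homer1, whose short form is known as an activity-induced gene, had 3 half-sites TGACG in this window, which 20.8% of all 32851 promoter windows also hold at least once. The other Homer1 window held no such half-site. Homer3 had 5 GC boxes, and 35.7% of all windows held at least 1. The Nrgn window held 1 GC box and 1 CCAAT box, the second found in 37.4% of all windows. The Cacng2 window held none of these letters. Over the 27 genes with a window in the table (40 windows), GC boxes were in 42.5% of windows, CCAAT boxes in 27.5%, the half-site in 12.5%, the TATA box (TATAAA) in 12.5%, against 13.6% of all windows, and the full element TGACGTCA in 0 of 40, against 1.79% of all windows.

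Levels per transcript length (TPM) placed Camk2b, a CaMKII subunit that binds actin, first among the 34 genes in every group. Its TPM averaged 425 ± 56.1 in shAdar1, 517 ± 69 in shAdar2, 373 in both shZfr samples, 298 ± 32.6 in shControl2 and 394 ± 9.21 in shControl1 (SD, n = 2). Cnih2, a cornichon that binds AMPA receptors, ranked 2 or 3 in every group but shControl2, where it ranked 6. Homer3 ranked lowest in shAdar1, shControl2 and shControl1, Cacng2 in shAdar2 and Cacng3 in shZfr. The largest shift in rank was that of Nrgn, which ranked 32 in shZfr, with 19.8 TPM on average, and 3 in shControl2, with 237 ± 17 TPM.

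**Figure D1:**
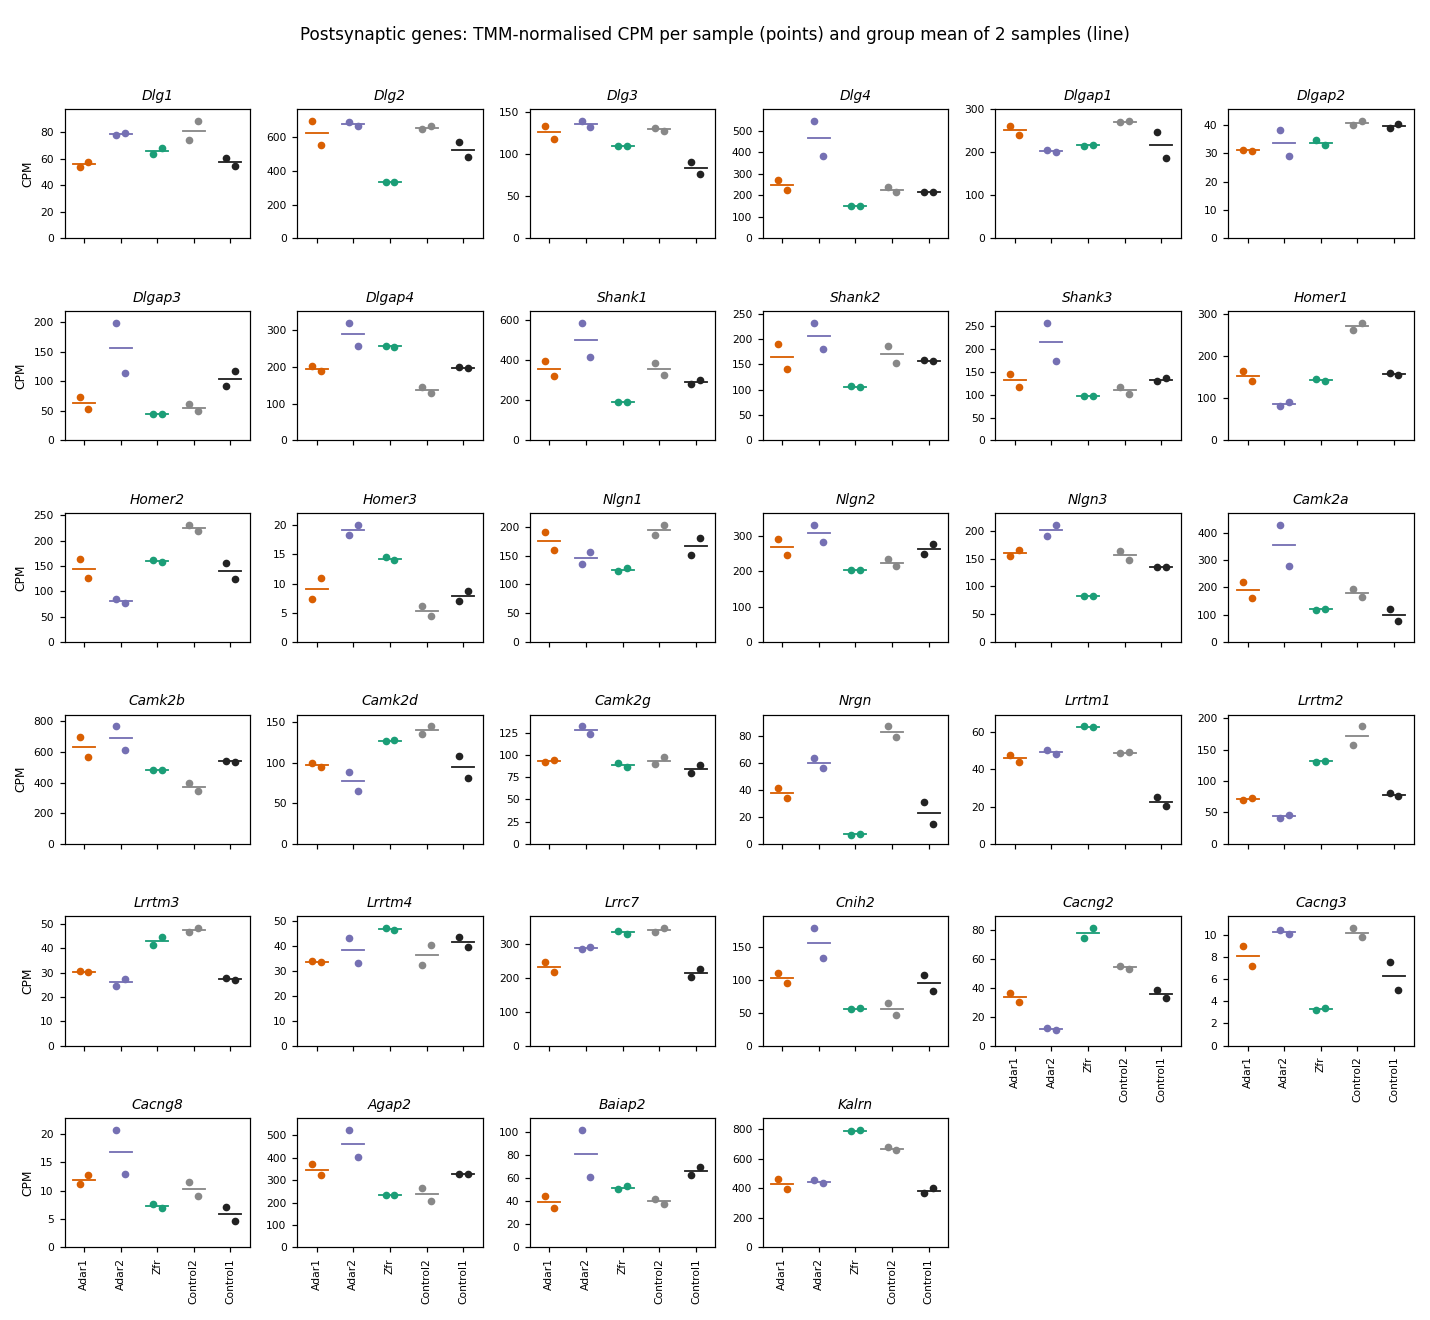
Level of each of the 34 genes in each sample (points, TMM-normalised CPM, axis from 0) and the group mean of 2 samples (line), by group along the x axis. Nrgn sits at 6.79 and 7.64 CPM in shZfr and at 86.9 and 79 in shControl2, and Cacng2 at 12.5 and 11 CPM in shAdar2 and at 38.2 and 33.3 in shControl1.

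The order of the group means, taken gene by gene in CPM, put shAdar2 highest for 19 of the 34 genes, shControl2 for 11 and shZfr for 4. shAdar1 and shControl1 were highest for 0. The lowest mean was in shZfr for 13 genes, in shAdar2 for 7, in shControl1 for 7, in shAdar1 for 4 and in shControl2 for 3. These orders are descriptions. Samples of 2 compared groups overlapped in 3 of the 34 genes (shControl2 and shControl1) to 18 (shAdar1 and shControl1), depending on the comparison. Orders and overlaps were not counted over all genes, so whether the 34 genes differ from others in them was not tested.

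In shAdar2 more of the postsynaptic genes rose than fell relative to shControl1. Of the 34 genes, 18 rose and 4 fell at an adjusted p under 0.05 (edgeR quasi-likelihood test, Benjamini-Hochberg over all genes tested), and of all genes tested 46.4% were called, 23.2% higher and 23.2% lower. The median log2 fold change was 0.44 over the 34 genes and 0.04 over all genes. Against shControl2, 15 of the 34 rose and 9 fell, where 59.5% of all genes were called, 32.2% higher and 27.3% lower, and the median over the 34 was 0.08 against 0.09 over all genes. Called higher against both controls were 11 genes (Dlg4, Dlgap4, Shank1, Shank3, Homer3, Nlgn3, Camk2a, Camk2g, Cnih2, Cacng8 and Agap2), beside 15.2% of all genes. Called lower against both were 4 genes (Homer1, Homer2, Lrrtm2 and Cacng2), beside 15.9%. Treating the near-identical shZfr pair as 1 sample raises the spread shared by all groups. Dlg2 and Agap2 then lost their calls against shControl1, and Shank1 and Cacng8 theirs against shControl2.

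In shZfr more of the genes fell than rose relative to shControl2. Against shControl2, 3 of the 34 genes rose and 11 fell, and of all genes tested 30.7% were called, 16.7% higher and 14.1% lower. With the shZfr pair counted as 1 sample, 2 rose (Dlgap4 and Homer3) and 6 fell (Dlg2, Shank1, Homer1, Nlgn3, Nrgn and Cacng3), where 7% of all genes rose and 6.06% fell. The median log2 fold change was -0.25 over the 34 genes and 0.05 over all. Against shControl1, 9 rose and 12 fell, where 46.2% of all genes were called, 22.8% higher and 23.4% lower, and with the pair as 1 sample 6 rose and 4 fell, where 15.5% of all genes rose and 12.9% fell. Lower against both controls were 8 genes (Dlg2, Dlg4, Shank1, Shank2, Nlgn1, Nlgn3, Nrgn and Cacng3), beside 7.85% of all genes, and higher against both were 3 (Dlgap4, Homer3 and Cacng2), beside 7.95%. With the pair as 1 sample the lower genes were 3 (Dlg2, Nlgn3 and Nrgn), beside 3.42% of all genes, and the higher genes were 0, beside 3.23%. Against shControl2, 8 of the 14 genes were called whichever replicate was left out, and Dlg4, Shank2, Homer2, Nlgn1, Lrrtm2 and Cacng2 were lost in at least 1 such fit. Against shControl1, 10 of the 21 were called in every such fit.

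In shAdar1 the genes called depended on the control. Against shControl1, 4 of 34 rose (Dlg3, Camk2a, Lrrtm1 and Cacng8) and 1 fell (Baiap2), where 16.2% of all genes were called, 9.33% higher and 6.9% lower. Of these, Lrrtm1 alone was called whichever replicate was left out. Dlg3, Camk2a, Cacng8 and Baiap2 lost the call in at least 1 such fit. Fewer of all genes were also called without shControl1 replicate 2 or without shAdar1 replicate 1. With the shZfr pair as 1 sample, which raises the spread shared by all groups, Camk2a, Cacng8 and Baiap2 lost the call. Fewer of all genes were called there too. Against shControl2, 5 rose and 10 fell, where 33.2% of all genes were called, 19.3% higher and 13.9% lower. The number called in the same direction against both controls was 0 by edgeR, beside 1.85% of all genes higher and 1.99% lower, and 14 of the 34 passed against neither, beside 57.1% of all genes.

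The control hairpins differed from each other at these genes. In shControl2, 15 of the 34 genes rose and 6 fell relative to shControl1, where 43.1% of all genes were called, 19.9% higher and 23.2% lower. The median was 0.30 over the 34 genes and -0.05 over all. With the shZfr pair as 1 sample, Cacng8 and Agap2 lost their calls between the controls. Fewer of the 34 genes, and of all genes, were called without shControl2 replicate 2 or without shControl1 replicate 2. Marker sums of neurons, excitatory neurons, GABAergic neurons, astrocytes, oligodendrocyte lineage and progenitors were also higher in shControl2 than in shControl1. Not every neuron marker was: Tubb3 had 462 and 399 CPM in shControl2, against 599 and 597 in shControl1. Of 12 general neuronal markers, 2 rose and 4 fell. The part of these marker differences was not tested. A change against 1 control alone is therefore given below beside the value against the other.

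**Figure D2:**
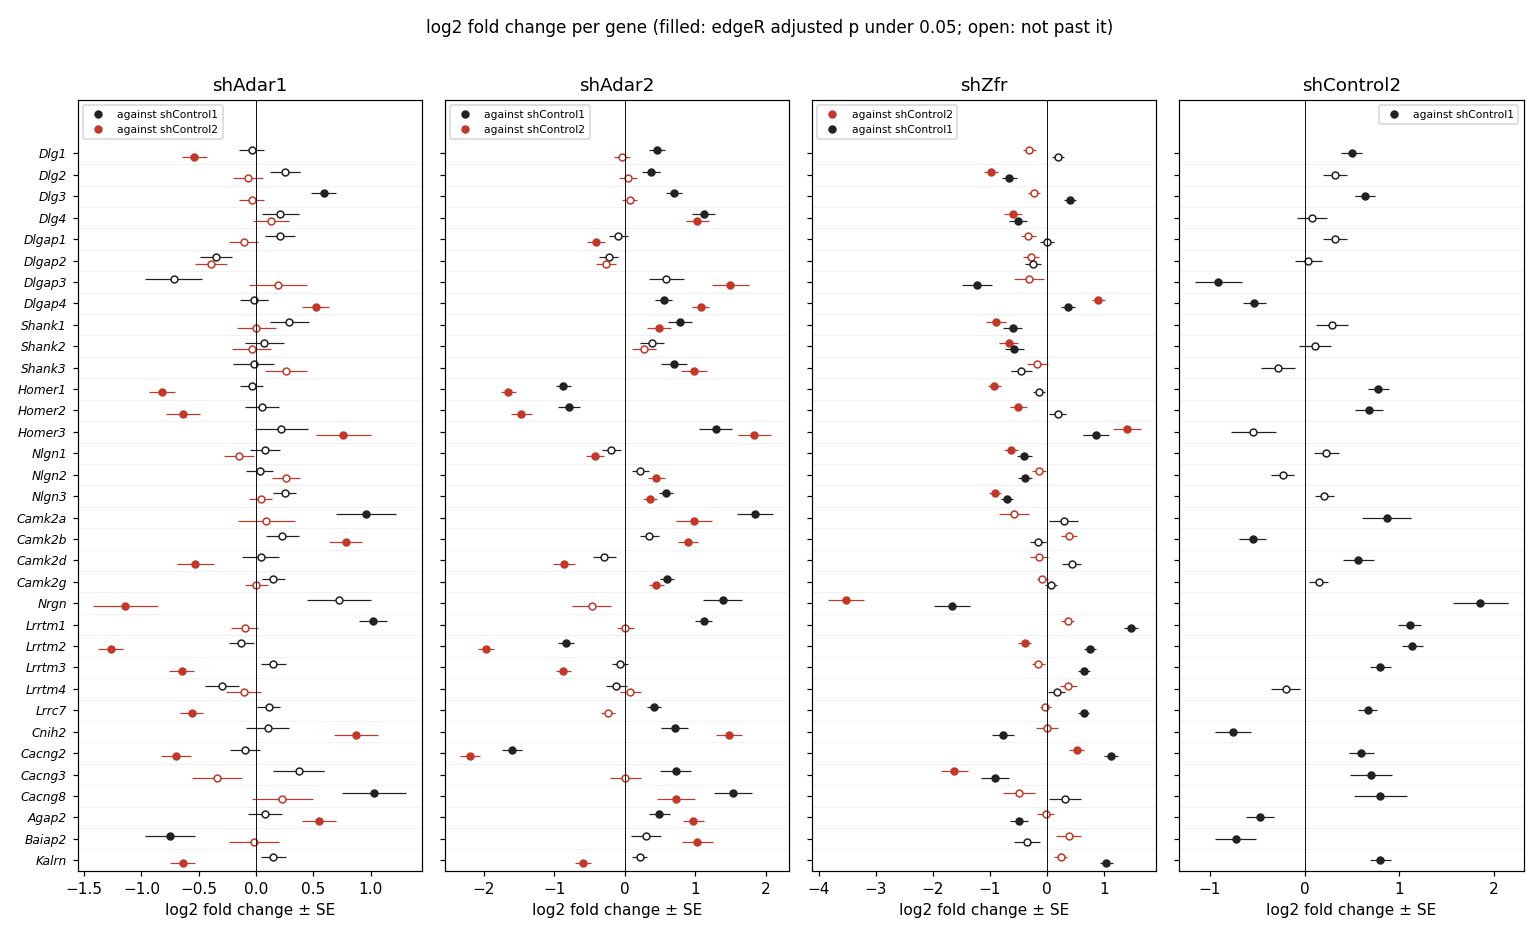
log2 fold change of each gene with its SE (edgeR), in shAdar1, shAdar2, shZfr and shControl2, with x ranges that differ between panels; colours name the control, and filled points passed an adjusted p of 0.05. Nrgn lies farthest from 0, at -3.52 in shZfr against shControl2, and filled points of shAdar2 lie mostly to the right.

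Adhesion molecules are described first. Nlgn3, a neuroligin found at excitatory and inhibitory synapses, had 83 and 82.3 CPM in shZfr, against 163 and 148 in shControl2 and 135 and 134 in shControl1. In shAdar2 it had 190 and 211 CPM. The shZfr samples lay below, and the shAdar2 samples above, all 4 control samples. The log2 fold change was -0.91 ± 0.10 (SE) in shZfr against shControl2 (edgeR adjusted p = 0.000229) and 0.58 ± 0.10 in shAdar2 against shControl1 (edgeR adjusted p = 0.00115). Nlgn1, the neuroligin of excitatory synapses, had 124 and 128 CPM in shZfr, against 186 and 204 in shControl2 and 151 and 181 in shControl1. It was lower against shControl2 by edgeR (-0.63 ± 0.13, adjusted p = 0.00585), and with the pair as 1 sample its adjusted p was 0.0513. Nlgn2, the neuroligin of inhibitory synapses, had log2 fold changes of 0.22 ± 0.12 in shAdar2 against shControl1 and -0.14 ± 0.12 in shZfr against shControl2, neither past the threshold. Against the other control it was called, higher in shAdar2 (331 and 281 CPM, against 234 and 213 in shControl2). In shZfr it was called lower (202 and 203 CPM, against 248 and 277 in shControl1). Both calls were lost in at least 1 fit without a replicate. In shAdar2 Nlgn1 was at -0.19 ± 0.13 against shControl1, not past the threshold. It was called lower against shControl2, a call also lost in at least 1 such fit.

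The Lrrtm genes encode leucine-rich adhesion proteins that bind presynaptic neurexins. Lrrtm1 had 47.6 and 44.2 CPM in shAdar1, 50.6 and 48 in shAdar2, 63.1 and 62.5 in shZfr, 49 and 49.1 in shControl2, and 25.2 and 20.2 in shControl1. The shControl1 samples lay below, and the shZfr samples above, the other 6 samples. Against shControl1 it was higher in shAdar1 (1.02 ± 0.12, edgeR adjusted p = 0.00135), and against shControl2 it was at -0.10 ± 0.12. In shZfr it was higher against shControl1 (1.47 ± 0.12, edgeR adjusted p = 3.18e-05) and at 0.36 ± 0.12 against shControl2 (edgeR adjusted p = 0.0505). Lrrtm2 had 70.3 and 72.4 CPM in shAdar1, 41.5 and 46.6 in shAdar2, 131 and 132 in shZfr, 157 and 187 in shControl2, and 80.6 and 75.6 in shControl1. Both shAdar2 samples lay below the other 8, and both shControl2 samples above. Its log2 fold change in shAdar2 was -0.83 ± 0.11 against shControl1 and -1.97 ± 0.11 against shControl2 (edgeR adjusted p = 0.000392 and 3.65e-06). In shZfr it was lower against shControl2 (-0.39 ± 0.11, a call lost with the pair as 1 sample) and higher against shControl1 (0.75 ± 0.11), the only one of the 34 genes called in opposite directions. Lrrtm3 fell in shAdar2 against shControl2 (-0.87 ± 0.11), and against shControl1 it was at -0.07 ± 0.11. Lrrtm4 passed in none of the 7 comparisons between groups. The exons of Lrrtm1, Lrrtm2 and Lrrtm3 lie within the alpha-catenin genes Ctnna2, Ctnna1 and Ctnna3 on the other strand, and no source used here says whether counting used strand, so reads of these pairs cannot be told apart. Ctnna1 itself was at -0.25 ± 0.34 in shAdar2 against shControl1 and -0.72 ± 0.34 against shControl2 (edgeR adjusted p = 0.566 and 0.0925). In shZfr Ctnna1 was at 0.51 ± 0.34 against shControl2 (edgeR adjusted p = 0.286). It rose by 0.98 ± 0.34 against shControl1 (edgeR adjusted p = 0.0392), the same direction as Lrrtm2 there. Ctnna2 rose in shZfr against shControl2 (0.41 ± 0.10, edgeR adjusted p = 0.0143), the direction of Lrrtm1 there. Ctnna3 fell in shZfr against shControl1 (-1.91 ± 0.59, edgeR adjusted p = 0.0242), where Lrrtm3 rose.

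Among the AMPA receptor auxiliaries, members of 1 family moved in opposite directions. Cacng2 (stargazin), which carries AMPA receptors to the synapse and anchors them to PSD-95, had 36.3 and 30.4 CPM in shAdar1, 12.5 and 11 in shAdar2, 74.3 and 81.3 in shZfr, 55.2 and 53.1 in shControl2, and 38.2 and 33.3 in shControl1. The shAdar2 samples were below and the shZfr samples above all others. In shAdar2 it fell by 1.60 ± 0.14 on the log2 scale against shControl1 and fell by 2.19 ± 0.14 against shControl2 (edgeR adjusted p = 4.21e-05 and 5.03e-06). In shZfr it was higher by 0.52 ± 0.13 against shControl2 (edgeR adjusted p = 0.0141), a call lost with the pair as 1 sample (adjusted p = 0.0798), and by 1.12 ± 0.13 against shControl1 (edgeR adjusted p = 0.000158).

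Cacng8, the related protein known from hippocampal AMPA receptors, had 20.7 and 12.9 CPM in shAdar2, against 11.5 and 8.99 in shControl2 and 7.11 and 4.64 in shControl1. The shAdar2 samples were above all 4 control samples, and replicate 1 was well above replicate 2. It rose in shAdar2 by 1.53 ± 0.27 against shControl1 and by 0.73 ± 0.27 against shControl2 (edgeR adjusted p = 0.00182 and 0.0399). Cacng3, another member of the family, had 10.4 and 10.1 CPM in shAdar2, 3.22 and 3.42 in shZfr, 10.6 and 9.77 in shControl2, and 7.53 and 5.02 in shControl1. The shZfr samples were the lowest of all 10. In shZfr it fell by 1.62 ± 0.24 against shControl2 (edgeR adjusted p = 0.00105), in the same samples in which Cacng2 was high.

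Within the summed TPM of these 3 genes, Cacng2 took 33.6% and 28.5% in shAdar1, 9.49% and 11.8% in shAdar2, 62.8% and 66.4% in shZfr, 41.4% and 45.4% in shControl2, and 43.8% and 50.8% in shControl1. Cacng8 took 74.5% and 65.9% in shAdar2, against 42.2% and 37.5% in shControl2 and 38.6% and 33.6% in shControl1. The shares of Cacng2 in shAdar2 and shZfr lay on opposite sides of all 4 control samples. Cnih2 had 179 and 134 CPM in shAdar2, 55.3 and 57.2 in shZfr, 65.5 and 47.4 in shControl2, and 107 and 84 in shControl1. It was higher in shAdar2 against both controls (0.71 ± 0.19 against shControl1 and 1.48 ± 0.19 against shControl2, edgeR adjusted p = 0.0127 and 0.00018). In shZfr its samples overlapped those of shControl2. The first of the shAdar2 calls was lost without shAdar2 replicate 1, where the value was 0.48. Exons of Cnih2 overlap Yif1a, which lies on the other strand, so part of the Cnih2 counts cannot be told apart from it. Yif1a was at -0.26 ± 0.23 in shAdar2 against shControl1 and 0.54 ± 0.24 against shControl2 (edgeR adjusted p = 0.388 and 0.0734). It was lower in shControl2 against shControl1 (-0.80 ± 0.24, edgeR adjusted p = 0.0227), the direction of Cnih2 there.

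**Figure D3:**
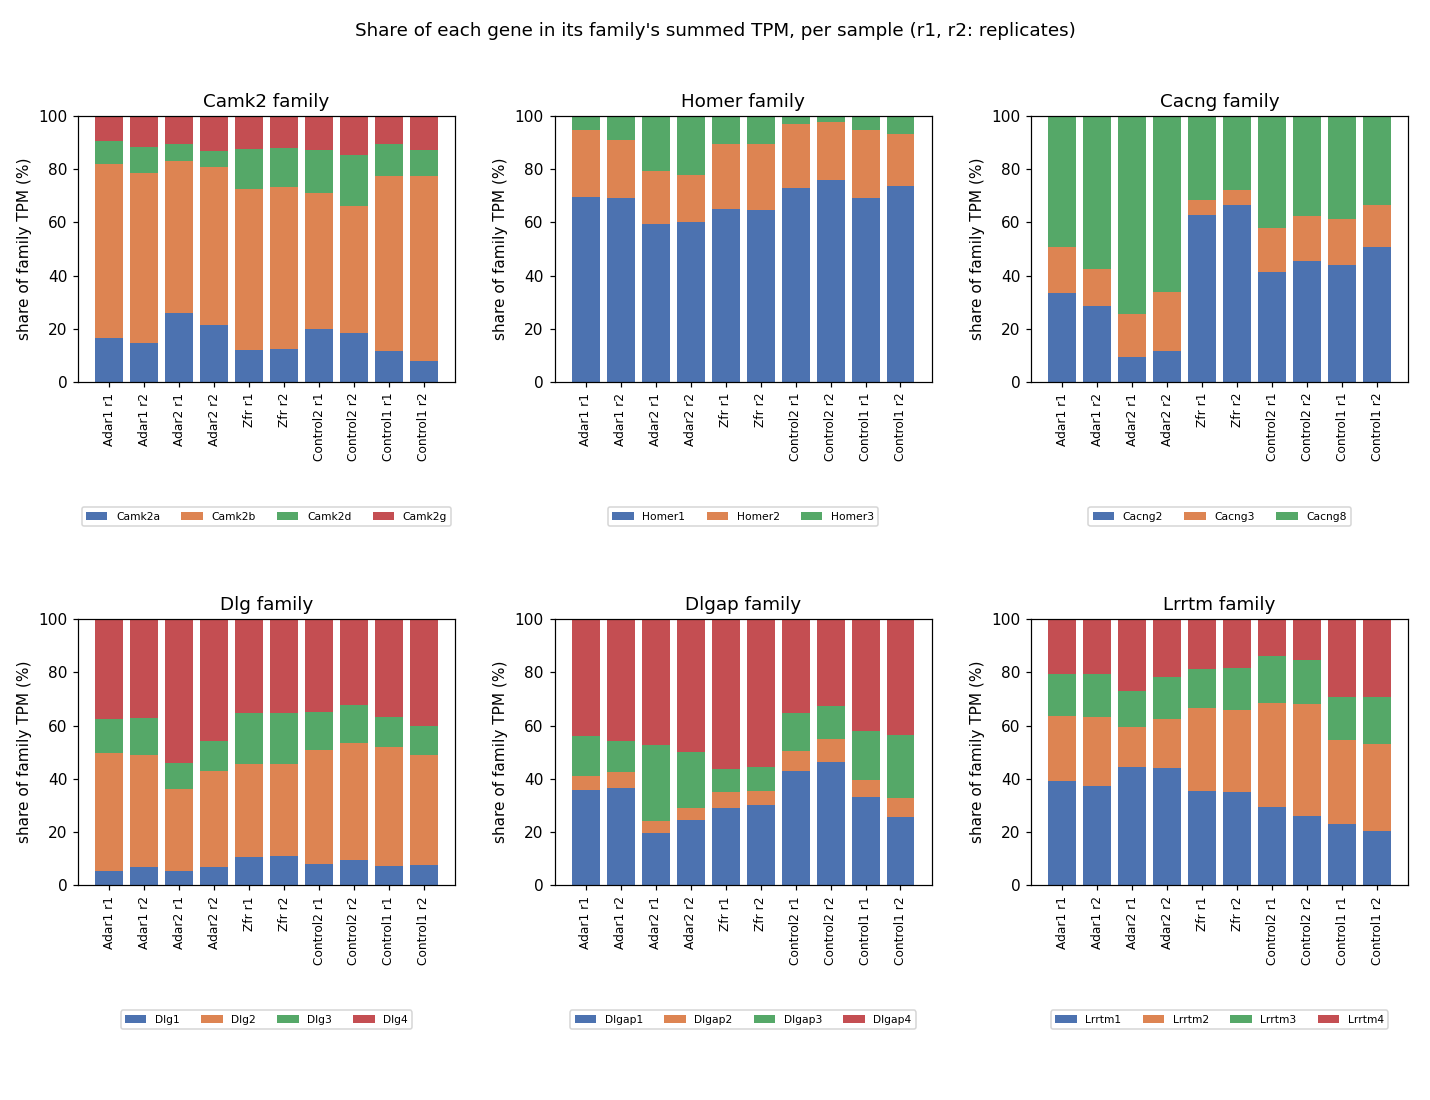
Share of each gene in the summed TPM of its family (stacked bars, 0 to 100%), per sample, with replicates marked r1 and r2, for 6 families. The Cacng2 share runs from 9.49% in shAdar2 to 66.4% in shZfr, and the Homer3 share is 20.7% and 22.1% in shAdar2 and 2.18% to 6.64% in the control samples.

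Scaffold genes next to the receptors diverged between shAdar2 and shZfr. Dlg4 (PSD-95), the main scaffold of mature excitatory synapses, had 544 and 384 CPM in shAdar2, 149 and 152 in shZfr, 237 and 216 in shControl2, and 215 and 213 in shControl1. The shAdar2 samples were above and the shZfr samples below all 4 control samples. It rose in shAdar2 by 1.12 ± 0.16 against shControl1 (edgeR adjusted p = 0.000514), and in shZfr it fell by 0.59 ± 0.16 against shControl2 (edgeR adjusted p = 0.0189), a call lost with the pair as 1 sample (adjusted p = 0.115). Dlg2 (PSD-93) had 331 and 332 CPM in shZfr, against 645 and 660 in shControl2 and 567 and 481 in shControl1. It fell by 0.98 ± 0.13 against shControl2 and fell by 0.66 ± 0.13 against shControl1 (edgeR adjusted p = 0.000634 and 0.00249). Dlg3 (SAP102), known as the early scaffold of developing synapses, was low in shControl1 alone, at 90.2 and 76.2 CPM, against 110 to 139 in the other groups. It rose against shControl1 in shAdar1, shAdar2, shZfr and shControl2 (0.40 to 0.70), and passed against shControl2 in 0 comparisons. Dlg1 (SAP97), a scaffold that also works in receptor traffic, rose in shAdar2 against shControl1 (0.46 ± 0.11) and was at -0.04 ± 0.11 against shControl2.

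The Dlgap genes link the Dlg scaffolds to Shank. Dlgap4 had 321 and 258 CPM in shAdar2, 257 and 256 in shZfr, 145 and 129 in shControl2, and 199 and 198 in shControl1. Both shAdar2 and shZfr samples were above all 4 control samples, and shControl2 was below shControl1. It rose by 1.08 ± 0.12 in shAdar2 against shControl2 and by 0.90 ± 0.12 in shZfr against shControl2 (edgeR adjusted p = 7.01e-05 and 0.000639), and by 0.55 ± 0.12 and 0.37 ± 0.12 against shControl1. Dlgap3 had 199 and 114 CPM in shAdar2, and in the technical libraries of replicate 1 it had 151, 275 and 197 CPM, against 60.9 and 50 in shControl2 and 91.5 and 117 in shControl1. It rose against shControl2 (1.50 ± 0.26) but not past the threshold against shControl1 (0.59 ± 0.25, edgeR adjusted p = 0.0773), where replicate 2 overlapped the controls. Dlgap1 was at -0.09 ± 0.13 and Dlgap2 at -0.23 ± 0.14 in shAdar2 against shControl1, and Dlgap2 passed in none of the 7 comparisons. Dlgap1 was called lower in shAdar2 against shControl2 (206 and 202 CPM, against 270 and 273), a call lost in some fits without 1 replicate.

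Shank proteins cross-link the Dlgap and Homer layers. Shank1 had 584 and 414 CPM in shAdar2, 190 and 192 in shZfr, 383 and 326 in shControl2, and 282 and 300 in shControl1. Samples of shAdar2 lay above, and those of shZfr below, all 4 control samples. It rose in shAdar2 by 0.78 ± 0.17 against shControl1, and in shZfr it fell by 0.89 ± 0.17 against shControl2 (edgeR adjusted p = 0.0046 and 0.00403). Shank2 fell in shZfr against both controls (-0.67 ± 0.17 against shControl2), a call lost with the pair as 1 sample (edgeR adjusted p = 0.0923), and was at 0.39 ± 0.17 in shAdar2 against shControl1. Shank3, the gene affected in Phelan-McDermid syndrome in humans, rose in shAdar2 (0.70 ± 0.18 against shControl1, edgeR adjusted p = 0.0098) and was at -0.17 ± 0.18 in shZfr against shControl2. Without shAdar2 replicate 1 the Shank3 value was 0.38 (edgeR adjusted p = 0.0502). Technical library 2 of that replicate held 772 CPM of Shank1 and 324 CPM of Shank3, against 480 and 571 CPM of Shank1 and 220 and 258 CPM of Shank3 in technical libraries 1 and 3 of the same RNA. Shares of the 3 Shank genes in their summed TPM moved little, with Shank1 between 44.7% and 52.7% in all samples.

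Homer proteins bind group 1 metabotropic glutamate receptors and Shank. Homer1 had 166 and 141 CPM in shAdar1, 82.5 and 90.7 in shAdar2, 146 and 141 in shZfr, 263 and 280 in shControl2, and 161 and 155 in shControl1. The shAdar2 samples were the lowest and the shControl2 samples the highest of all 10. In shAdar2 it fell by 0.87 ± 0.11 against shControl1 and fell by 1.65 ± 0.11 against shControl2 (edgeR adjusted p = 0.000232 and 6.08e-06). In shZfr it fell against shControl2 (-0.92 ± 0.11) and was at -0.14 ± 0.10 against shControl1. Homer2 had 85.1 and 77.6 CPM in shAdar2, against 232 and 219 in shControl2 and 157 and 124 in shControl1, and fell by 0.79 ± 0.15 against shControl1 (edgeR adjusted p = 0.00221).

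Homer3 went the other way from Homer1 and Homer2. It had 7.29 and 11 CPM in shAdar1, 18.4 and 20.1 in shAdar2, 14.5 and 14 in shZfr, 6.25 and 4.52 in shControl2, and 6.96 and 8.7 in shControl1. The shAdar2 and shZfr samples were above all 4 control samples. It rose in shAdar2 by 1.29 ± 0.23 against shControl1 and 1.84 ± 0.24 against shControl2 (edgeR adjusted p = 0.00179 and 0.000176), and in shZfr by 1.4 ± 0.24 against shControl2 (edgeR adjusted p = 0.00239). Its share of the summed Homer TPM was 20.7% and 22.1% in shAdar2, 10.6% in both shZfr samples, 3.15% and 2.18% in shControl2, and 5.45% and 6.64% in shControl1. Exons of Homer3 overlap Ddx49, which lies on the other strand, so part of the Homer3 counts cannot be told apart from it. Ddx49 was at 0.37 ± 0.15 in shAdar2 against shControl1 (edgeR adjusted p = 0.0636) and rose by 1.12 ± 0.15 against shControl2 (edgeR adjusted p = 0.000204). In shZfr Ddx49 was at 0.27 ± 0.15 against shControl2 (edgeR adjusted p = 0.212) and -0.48 ± 0.15 against shControl1 (edgeR adjusted p = 0.0246).

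The calcium-signalling genes held the largest change. Nrgn, which binds calmodulin at low calcium and releases it when calcium enters, had 41.3 and 33.9 CPM in shAdar1, 63.5 and 56.4 in shAdar2, 6.79 and 7.64 in shZfr, 86.9 and 79 in shControl2, and 31.3 and 14.5 in shControl1. The shZfr samples were below all others, the controls did not overlap each other, and the shControl1 replicates differed by more than those of any other group. In shZfr Nrgn was at 8.71% of shControl2 (log2 fold change -3.52 ± 0.32, edgeR adjusted p = 0.000113), and with the pair as 1 sample at -3.51 (adjusted p = 0.0029). Against shControl1 it was at 31.7% (-1.66 ± 0.31, edgeR adjusted p = 0.00197). In shAdar2 it was higher than in shControl1 (1.39 ± 0.28, edgeR adjusted p = 0.00347) and at -0.47 ± 0.28 against shControl2. Nrgn in shControl2 was itself at 3.63 times its level in shControl1 (1.86 ± 0.29, edgeR adjusted p = 0.000862). The size of any Nrgn change therefore depended on which control was used.

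CaMKII subunits form mixed holoenzymes. Camk2a, the alpha subunit of forebrain excitatory neurons, had 221 and 161 CPM in shAdar1, 430 and 277 in shAdar2, 119 and 121 in shZfr, 194 and 165 in shControl2, and 121 and 75.7 in shControl1. Both shAdar2 samples lay above the other 8. It rose in shAdar2 by 1.85 ± 0.26 against shControl1 and by 0.98 ± 0.26 against shControl2 (edgeR adjusted p = 0.000514 and 0.00817). Camk2a in shZfr was at -0.58 ± 0.26 against shControl2 and 0.29 ± 0.26 against shControl1, past the threshold in neither. Camk2g rose in shAdar2 against both controls (0.60 ± 0.10 and 0.45 ± 0.10 against shControl1 and shControl2). Camk2b had 767 and 610 CPM in shAdar2, against 398 and 342 in shControl2 and 544 and 537 in shControl1. It rose against shControl2 (0.90 ± 0.14) and was at 0.35 ± 0.14 against shControl1 (edgeR adjusted p = 0.0695). Camk2d fell in shAdar2 against shControl2 (-0.86 ± 0.16) and was at -0.29 ± 0.16 against shControl1. The Camk2a share of the summed Camk2 TPM was 25.8% and 21.6% in shAdar2, against 20% and 18.5% in shControl2 and 11.7% and 7.95% in shControl1.

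The remaining genes encode scaffold-associated signalling proteins. Kalrn, whose product kalirin acts in dendritic spines, had 461 and 397 CPM in shAdar1, 456 and 434 in shAdar2, 786 and 796 in shZfr, 678 and 660 in shControl2, and 369 and 402 in shControl1. The shZfr and shControl2 samples lay above the other 6. Kalrn was higher in shZfr against shControl1 (1.04 ± 0.11, edgeR adjusted p = 7.99e-05) and at 0.24 ± 0.11 against shControl2. In shAdar1 and in shAdar2 it was called lower against shControl2, whichever replicate was left out. Against shControl1 it was called in neither. Lrrc7 (densin-180), which binds CaMKII, had 246 and 216 CPM in shAdar1, 285 and 290 in shAdar2, 339 and 330 in shZfr, 335 and 346 in shControl2, and 203 and 225 in shControl1. It fell in shAdar1 against shControl2 (-0.56 ± 0.10, edgeR adjusted p = 0.00301), and against shControl1 it rose in shAdar2, shZfr and shControl2 (0.42 to 0.67, SE 0.10). Agap2, the gene of the GTPase PIKE, rose in shAdar2 by 0.49 ± 0.15 against shControl1 and 0.97 ± 0.15 against shControl2 (edgeR adjusted p = 0.0254 and 0.000555), and without shAdar2 replicate 1 it was at 0.28 against shControl1 (edgeR adjusted p = 0.15). Baiap2 (IRSp53), which shapes membranes with actin, had 44.5 and 34.5 CPM in shAdar1, 102 and 61 in shAdar2, 42.1 and 38.1 in shControl2, and 62.8 and 69.8 in shControl1. It rose in shAdar2 against shControl2 (1.03 ± 0.22), and against shControl1, where the samples overlapped, it was at 0.30 ± 0.21.

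**Figure D4:**
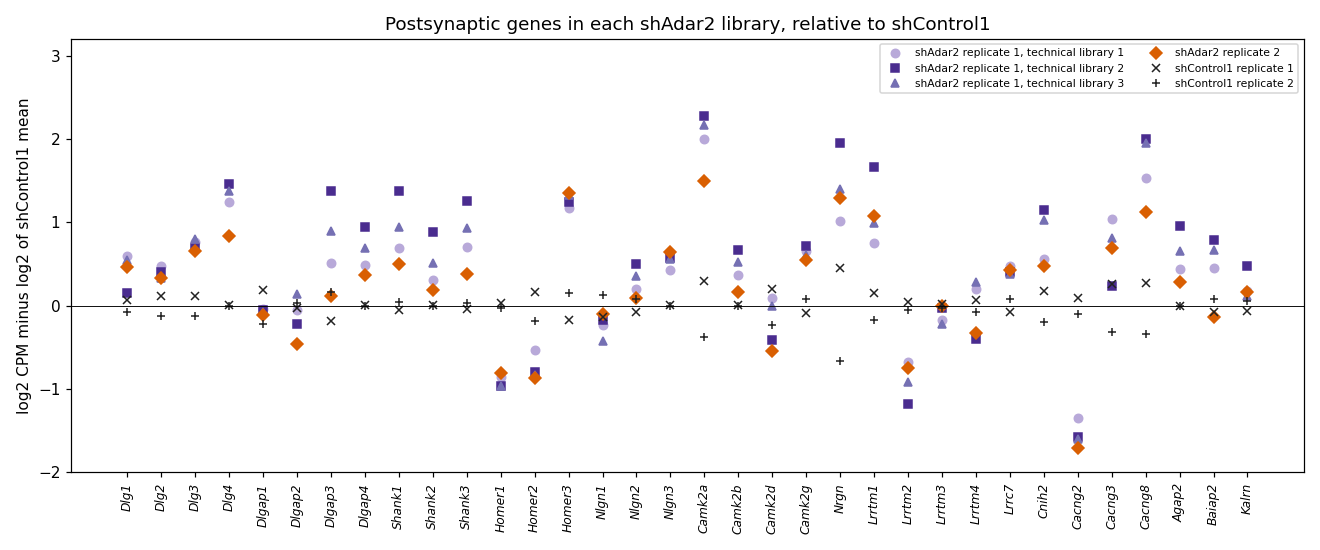
Each shAdar2 library (3 technical libraries of replicate 1, and replicate 2) and each shControl1 sample, as log2 CPM minus the log2 of the shControl1 mean, for the 34 genes along the x axis. Technical library 2 holds 275 CPM of Dlgap3 and 90.4 CPM of Nrgn, against 151 and 197 CPM of Dlgap3 and 47.1 and 61.4 CPM of Nrgn in technical libraries 1 and 3.

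How far the shAdar2 results rest on 1 library was examined gene by gene. Of the 22 genes called against shControl1, 15 were called whichever replicate was left out, and Dlg1, Dlg2, Shank3, Lrrc7, Cnih2, Cacng3 and Agap2 were lost in at least 1 such fit, most of them without shAdar2 replicate 1 or shControl1 replicate 2. Of the 24 called against shControl2, 17 were called whichever replicate was left out. Dlgap1, Shank1, Nlgn1, Nlgn2, Nlgn3, Camk2a and Cacng8 were lost in at least 1 such fit, and without shControl2 replicate 2 all 7 were. Camk2a then stood at 0.85 (edgeR adjusted p = 0.0813). Called against both controls in every such fit were Dlg4, Dlgap4, Homer3 and Camk2g, higher, and Homer1, Homer2, Lrrtm2 and Cacng2, lower. With technical libraries 1 and 3 summed as replicate 1, the same 22 genes were called against shControl1. With technical library 2 alone as replicate 1, 20 of the 22 were called, and Dlg1 and Cacng3 were not. For Cacng2, the technical libraries had 14.3, 12.2 and 12 CPM, and for Homer3 they had 17.9, 18.9 and 20 CPM, close to each other beside the distance from shControl1.

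Other genes of the synapse were counted from lists. The shares of all genes tested to set beside these counts were 9.33% higher and 6.9% lower in shAdar1 against shControl1, 23.2% higher and 23.2% lower in shAdar2 against shControl1, 16.7% higher and 14.1% lower in shZfr against shControl2 (7% and 6.06% with the pair as 1 sample), and 19.9% higher and 23.2% lower in shControl2 against shControl1. Against shControl2 the shares were 19.3% higher and 13.9% lower in shAdar1, and 32.2% and 27.3% in shAdar2. Of 27 other postsynaptic density proteins, 14 rose and 6 fell in shAdar2 against shControl1. The median log2 fold change was 0.33 (0.04 over all genes). Against shControl2, 9 rose and 10 fell in shAdar2 (median -0.15, and 0.09 over all genes). In shZfr against shControl2, 1 rose and 10 fell (1 and 7 with the pair as 1 sample), with a median of -0.44 (0.05 over all genes). In shZfr against shControl1 the median of the 27 was -0.22 (-0.03 over all genes). Calm2, a calmodulin gene, was the called gene of lowest p in shAdar2 against shControl1 and in shZfr against shControl2. Its log2 fold changes there were -2.48 ± 0.14 and -2.28 ± 0.14 (edgeR adjusted p = 7.65e-06 and 2.95e-05). Against the other control it was at -1.78 ± 0.14 in shAdar2 and -2.98 ± 0.14 in shZfr. In shAdar1 against shControl1, 4 of the 27 rose and 1 fell, and against shControl2, 3 rose and 10 fell.

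Of 18 glutamate receptor subunits, 8 rose and 4 fell in shAdar2 against shControl1 (median 0.16). Against shControl2 the direction turned, and 3 rose and 7 fell in shAdar2 (median -0.24). In shZfr against shControl2, 3 rose and 6 fell (1 and 4 with the pair as 1 sample; median -0.29). In shZfr against shControl1 the median of the subunits was 0.20 (-0.03 over all genes). In shControl2 against shControl1, 11 rose and 1 fell (median 0.65). Grm5, the metabotropic receptor that Homer proteins bind, fell by 1.11 ± 0.11 in shZfr against shControl2 (edgeR adjusted p = 0.000197). Against shControl1 it rose in shZfr by 0.60 ± 0.11 (edgeR adjusted p = 0.00225). It was higher by 1.70 ± 0.12 in shControl2 against shControl1 (edgeR adjusted p = 2.06e-05).

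Of 24 adhesion partners across the cleft, 5 rose and 11 fell in shAdar2 against shControl1 (median -0.01), and 4 rose and 5 fell in shZfr against shControl2 (1 and 1 with the pair as 1 sample; median -0.20). Of 24 genes of presynaptic release, 6 rose and 5 fell in shAdar2 (median 0.07), and 1 rose and 3 fell in shZfr (0 and 2 with the pair as 1 sample; median -0.14). Of 12 general neuronal markers, 1 rose and 5 fell in shAdar2 (median -0.37), and 3 rose and 0 fell in shZfr (2 and 0 with the pair as 1 sample; median 0.32). In shAdar2 against shControl2, 8 of the adhesion partners rose and 10 fell (median 0.06). Of the presynaptic genes 9 rose and 10 fell there (median 0.14), and of the neuronal markers 4 and 5 (median -0.41). In shZfr against shControl1 the medians of these lists were -0.15, -0.30 and 0.19, in that order. In these medians the general neuronal markers and the 34 postsynaptic genes lay on opposite sides of 0 in shAdar2 and in shZfr. The 34 had medians of only 0.08 in shAdar2 against shControl2 and -0.07 in shZfr against shControl1. In shAdar1 against shControl1 the counts were 1 higher and 3 lower of the adhesion partners, and 4 and 2 of the receptor subunits. They were 4 and 2 of the presynaptic genes, and 1 and 1 of the neuronal markers. Against shControl2 the counts in shAdar1 were 2 and 4, 1 and 9, 4 and 8, and 4 and 4, in that order.

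**Figure D5:**
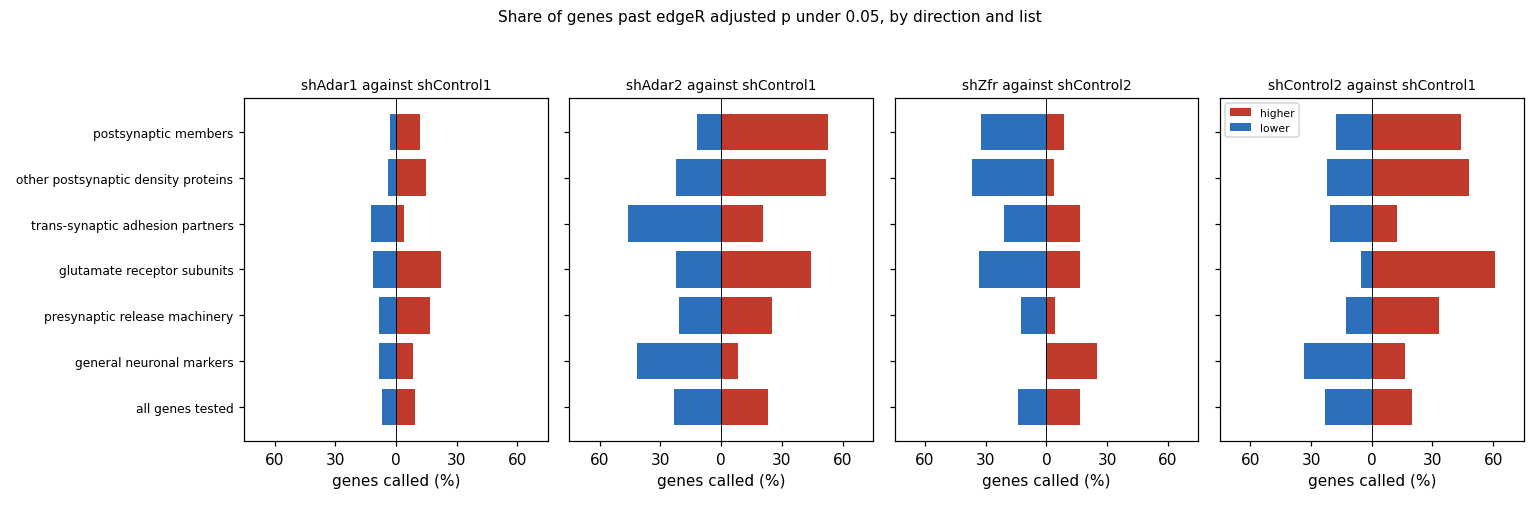
Percent of each list called higher (right of 0) or lower (left of 0) by edgeR at an adjusted p under 0.05, in 4 comparisons, with all genes tested at the bottom. The 34 postsynaptic genes are at 52.9% higher and 11.8% lower in shAdar2 against shControl1, and at 8.82% higher and 32.4% lower in shZfr against shControl2.

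The effects of the hairpins were also set against each other in 1 fit. The effect of shZfr against shControl2 minus that of shAdar2 against shControl1, which share no sample, differed from 0 in 17 of the 34 genes. Of these 2 were higher and 15 lower, where 41.1% of all genes were called, 22.2% higher and 18.9% lower. The difference between the controls enters each of these values. In shControl2, 15 of the 34 genes rose and 6 fell relative to shControl1, beside 19.9% and 23.2% of all genes. Lrrtm1 was called lower in this difference, though it had 63.1 and 62.5 CPM in shZfr and 50.6 and 48 in shAdar2. With the shZfr pair as 1 sample Shank3, Lrrtm2 and Lrrc7 lost the call, and fewer of all genes were called. Only these genes were lost in fits without 1 replicate. Cacng2 was 1 of the higher ones (2.12 ± 0.19, edgeR adjusted p = 6.12e-05), and Dlg4 was among the lower ones (-1.71 ± 0.22, edgeR adjusted p = 0.000371). The shAdar2 effect minus the shAdar1 effect, in which shControl1 cancels, differed in 17 genes, 13 higher and 4 lower, where 38% of all genes were called, 17% higher and 21% lower. The 4 lower genes were Homer1, Homer2, Lrrtm2 and Cacng2, and all 4 were called whichever replicate was left out, as were 6 of the 13 higher ones. Without shAdar1 replicate 2 fewer were called, both of the 34 genes and of all genes. The shZfr effect minus the shAdar1 effect differed in 18 genes, 5 higher and 13 lower, where 26.3% of all genes were called, 12.7% higher and 13.6% lower. The difference between the controls enters here too. With the shZfr pair as 1 sample fewer were called, both of the 34 genes and of all genes.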

How the data were processed

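RNA of 12 libraries (10 samples in 5 groups) was analysed. Per the labels' protocols, RNase H depletion of ribosomal RNA preceded library construction, with no selection for poly(A) tails. The authors deposited RSEM expected counts and TPM per gene (estimated counts, not normalised, and abundance per transcript length), one table per library. The submitters' processing notes name RSEM 1.2.30, STAR 2.5.4b, Trim Galore 0.4.5, DESeq2 1.20.0, SAMtools 1.4 and the mm9 build without saying what each did. The values of the 34 genes were whole numbers in 408 of 408 cases (tolerance 0.005). The deposited editing tables give mm9 positions and were not used here.

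Expected counts were rounded, the 3 technical libraries of shAdar2 replicate 1 summed, low counts removed with filterByExpr, and libraries normalised with TMM. The quasi-likelihood F test of edgeR 4.0.16 (R 4.3.3) used all 10 samples and 1 common estimate of their spread, with Benjamini-Hochberg adjustment over 14785 genes and a threshold of 0.05. SE is the log2 fold change over the square root of F. The test was tested on simulated data. CPM are TMM-normalised, and TPM of technical libraries were averaged. DESeq2 1.42.0, other scalings, no filter, a replicate block and left-out replicates were alternatives. Samples were not paired by replicate number in the main fit. Same-numbered deviations correlated from -0.18 to 0.37 over 10 pairs of groups, 3 of them over 0.1. The highest value was between shAdar1 and shAdar2. Whether same-numbered replicates shared a batch was not tested. The labels give no batch. All 34 genes and the targeted genes are named by rule, with at most 2 called genes of lowest p per other list. The genes and lists were chosen with earlier results of these data known. Promoter windows are from RefSeq on GRCm38.p6, and overlapping genes from GENCODE M21.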

Additional observations from a re-analysis of the deposited data

Results flagged for a closer look

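Effects of the hairpins, each against the control its submitters used, differed at many of the postsynaptic genes by a direct test of the difference (edgeR quasi-likelihood test, Benjamini-Hochberg over all genes). The effect of shZfr (against shControl2) minus that of shAdar1 (against shControl1) passed in 18 of the 34 genes, beside 26.3% of all genes. In Nrgn it was -4.24 ± 0.42 on the log2 scale. The effect of shZfr (against shControl2) minus that of shAdar2 (against shControl1) passed in 17 genes, beside 41.1% of all genes, and in Nrgn it was -4.91 ± 0.43. Fewer of the 34 genes, and of all genes, passed in each of these differences with the shZfr pair as 1 sample. The difference between the controls enters both at every gene, so neither compares the hairpins alone. Between the controls 21 of the 34 genes were called, beside 43.1% of all genes. Nrgn was itself higher in shControl2 than in shControl1 by 1.86 ± 0.29. The effect of shAdar2 minus that of shAdar1 passed in 17 genes, beside 38% of all genes, and in Cacng2 it was -1.49 ± 0.14.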

How the results depend on the processing

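Of the 34 genes in each of 10 comparisons, 0 called values changed sign under any alternative. Outside the fits with 1 sample in a group, counts moved by over 1.5 times as follows. In shAdar1 against shControl1 the count of 5 became 3 with technical library 2 alone, where 13.1% of all genes were called. It became 3 with technical library 3 alone, where 13.4% were called. In shZfr against shControl2 the count of 14 became 29 with only the compared groups in the fit. That fit takes the spread from 4 samples, 2 of them the near-identical shZfr pair. The difference between shAdar2 and shAdar1 effects fell to 11 of 17 with only the compared groups, where 17% of all genes were called, beside 38% in the main fit. With the shZfr samples summed to 1, an alternative chosen after seeing the data, fewer were called in each of the 10 comparisons, both of the 34 genes and of all genes. The fall was over 1.5 times in shAdar1 against shControl1, in both shZfr comparisons and in the difference between shZfr and shAdar1 effects. Leaving out 1 replicate at a time gave 1 to 6 genes in shAdar1 against shControl1, 17 to 25 in shAdar2 against shControl1, 8 to 11 in shZfr against shControl2, 7 to 13 in shAdar1 against shControl2, 17 to 25 in shAdar2 against shControl2, 10 to 15 in shZfr against shControl1 and 10 to 19 in shControl2 against shControl1. For the differences of effects it gave 8 to 15 (shZfr minus shAdar1), 14 to 21 (shZfr minus shAdar2) and 11 to 18 (shAdar2 minus shAdar1). With a replicate block the counts were 5, 24, 17, 15, 24, 23 and 21 in the order of the 7 comparisons just listed. DESeq2 gave 6, 23, 15, 16, 25, 22 and 23 in that order. Shares of all genes called were 16.2%, 46.4%, 30.7%, 33.2%, 59.5%, 46.2% and 43.1% in the main fit. With the block they were 15.8%, 46.2%, 30.9%, 33.2%, 59.8%, 46.3% and 43.6%, and by DESeq2 20.9%, 45.5%, 32.7%, 36.2%, 57.8%, 45.9% and 42.8%. With only the compared groups, 56.8% of all genes were called in shZfr against shControl2. Another scaling moved the median of all genes by under 0.1 on the log2 scale. The lowest count of these genes in any library was 56, and each group had 2 samples.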
